A study of Mus musculus with 6 samples.

Results

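The IRF and STAT transcription factors examined here were Irf1, Irf3, Irf5, Irf7, Irf8, Irf9, Stat2, Stat3 and Stat6, 9 of the 18430 mouse genes with at least 1 counted read. They were taken by gene symbol, and for each gene the most counted transcript (mean of the 6 libraries) stands for it. The study asked how the RNA-binding protein AUF1, encoded by hnRNPD (Hnrnpd), shapes the response of macrophages to bacterial lipopolysaccharide (LPS). Bone marrow derived macrophages (BMDMs) of C57BL/6J mice aged 6 to 8 weeks were grown for 10 days in medium conditioned by L929 cells and were then treated with 100 ng/ml LPS for 4 hrs. The 3 control libraries carried hnRNPD alleles flanked by loxP sites in the exon 3 and 4 region (hnRNPD fl/fl), and the 3 M-Δx3,4 libraries carried the same alleles with LysMCre (LysCre+hnRNPD fl/fl), a Cre recombinase active in the myeloid lineage. Both groups received LPS and no untreated library was analysed here, so no value below is a response to LPS. Reads were collected from the 3′ ends of mRNAs and deposited as counts per 3′ region. Nothing in the labels says whether the 3 samples of a group came from separate animals. The p-values thus measure the spread between these samples, of which an unknown part may be technical. Y-linked counts, given below, differed between the control libraries.

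IRFs and STATs carry the signal from pattern recognition and cytokine receptors to the nucleus. In macrophages exposed to LPS, IRF3 is activated below the adaptor TRIF and drives transcription of interferon beta, and IRF5 acts below the adaptor MyD88 on inflammatory cytokine genes. Secreted interferon activates ISGF3, a complex that contains STAT2 and IRF9, which binds interferon-stimulated response elements (ISREs) and induces many genes, Irf7 among them. STAT3 mediates signals of the cytokines IL-10 and IL-6, STAT6 those of IL-4 and IL-13, and IRF8 is a myeloid lineage factor that binds DNA with PU.1. AUF1 binds AU-rich elements in 3′ untranslated regions (UTRs), whose core is the pentamer ATTTA.

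The sequences most relevant to these genes were AU-rich pentamers in their 3′ UTRs and binding motifs in their promoters. In the 3′ UTRs of GENCODE vM21 (GRCm38, the same assembly as mm10), Irf1 had 3 ATTTA pentamers in 877 bases, at bases 665, 669 and 863, and the first pair overlapped. As many or more were found in 21.6% of the 635 3′ UTRs of tested genes within 10% of that length. The windows around the first and the last are shown because AUF1 is known for binding such sequence, with the pentamer in capitals, on the plus strand.
Irf1 chr11:53777099-53777128: ctaggcctttgcATTTAtttatatagtgcc
Irf1 chr11:53777294-53777323: tgtctttttataaaaATTTAagttgtttac

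Irf5 had 2 pentamers in 534 bases, Irf8 2 in 1519 bases, Stat3 2 in 3701 bases and Irf9 1 in 999 bases. Irf3, Irf7, Stat2 and Stat6 had 0 in 207, 41, 1476 and 976 bases. The 41 bases of Irf7 are those of its protein-coding transcript ENSMUST00000097952, because the transcript with the highest count has another annotation, given below. Among UTRs of like length, 84.6% of those compared with Stat2 and 73.6% of those compared with Stat6 held a pentamer. The longer motif TTATTTATT was in 0 of the 9 members and in 7.49% of the 10046 tested genes with an annotated 3′ UTR, of which 67.7% held ATTTA. Only this exact form was searched. A form that differs in its last base, as in the first Irf1 window, was not counted. The window of the first pentamer of Irf8 and that of the first of Irf5, both on the plus strand, read as follows.
Irf8 chr8:120755493-120755522: ccgagggcggagATTTAtgactttctctgc
Irf5 chr6:29537170-29537199: agaataaccctgATTTAggggtcccctagt

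In the RefSeq promoters of GRCm38.p6 (250 bases before to 50 after each start), which covered all 9 members with 12 promoters, the STAT motif TTCNNNGAA (GAS) was found in Irf1 and Irf8 and an ISRE core, a pair of like half-sites with a short spacer, in Stat2. Both strands were searched, the GAS letters read the same on both, and neither motif overlapped the other. GAS was in 8.3% and ISRE in 3.44% of all 32851 promoters. Irf8 held 2 GAS matches, 171 and 153 bases before its start, that of Irf1 lay 90 bases before and the ISRE of Stat2 222 bases before on the opposite strand. These letters are a description of the sequence and not evidence of binding. The windows below carry the motif in capitals.
Irf1 GAS chr11:53769914-53769943: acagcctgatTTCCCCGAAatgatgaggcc
Irf8 GAS chr8:120736177-120736206: caaaagtgatTTCTCGGAAagagagcgctt
Irf8 GAS chr8:120736195-120736224: aagagagcgcTTCAGAGAAggcggatttgg
Stat2 ISRE chr10:128270266-128270295: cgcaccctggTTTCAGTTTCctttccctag

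The 9 members spanned a wide range of levels in these macrophages. On the scale of the authors' TPM values, which divide counts by the length of the counted region and scale each library, Irf5 (mean of 6 libraries 209, from 155 to 285), Irf7 (183, from 124 to 221) and Irf1 (159, from 127 to 187) were highest, and their ranges overlapped. Irf8 (42.3, from 29.5 to 66.6) and Irf9 (32.6, from 29.1 to 38.1) followed, with overlapping ranges below every library of Irf1. The remaining 4 had means of 7.6 (Stat2, from 5.62 to 10.0), 7.2 (Stat6, from 5.95 to 8.84), 6.33 (Irf3, from 3.87 to 9.82) and 6.2 TPM (Stat3, from 4.97 to 8.17), below every library of Irf9 and not separable from each other. The order was the same for normalized counts per kilobase. These levels are not a measure of molecules in a strict sense, because a 3′ end library gives reads near the end of an mRNA whatever its length. By normalized counts without division by length, Irf1 came first and Stat3, whose counted region is the longest (3950 bases), came sixth.

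**Figure D1:**
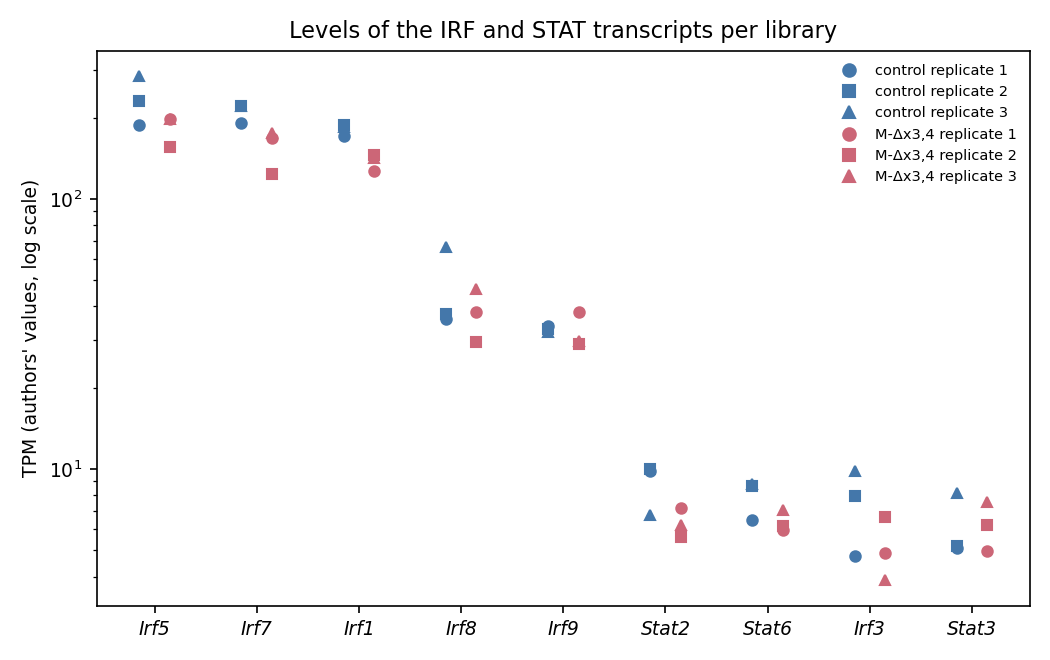
TPM in each of the 6 libraries (log scale) for the 9 members, ordered by mean, control left and M-Δx3,4 right of each position. Irf5, Irf7 and Irf1 lie above 120, Irf8 and Irf9 between 29.1 and 66.6, and the other 4 at 10.0 or below.

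With all 6 libraries, every one of the 9 members had a negative estimate in M-Δx3,4 relative to control BMDMs, with log2 fold changes from -0.60 (Irf3) to -0.03 (Stat3) and a median of -0.40. None of them passed the test: edgeR's quasi-likelihood test gave 0 of 9 members an unadjusted p below 0.05, against 3.98% of the 11873 tested genes, and 0 of 9 when a log2 fold change of 1 or more in size was also asked for, against 3.07%. The adjusted p of the edgeR fit was 0.984 for 7 members, 0.996 for Irf9 and 0.998 for Stat3, and in this fit 0 genes of all those tested had an adjusted p under 0.05 (smallest 0.824). Among all tested genes 50.5% had a negative estimate and the median log2 fold change was -0.01. In 3 of 9 members, Irf1, Irf7 and Stat2, every M-Δx3,4 library lay below every control library, where 4.25% of tested genes did. In either direction, 8.44% of tested genes had groups that do not overlap, and no member lay higher. The 9 members are not independent observations, since they come from the same 6 libraries. The count of members with separate groups was 6 of 9 without control replicate 1, which added Irf3, Irf5 and Stat6. It was 1 of the 7 members tested by their next most counted transcript. Irf1 and Stat6 had no such transcript tested, and that of Stat2 had only 2.0 to 7.0 normalized counts. The 1 of 7 is thus not a like comparison with the 3 of 9. The share over all tested genes was not obtained for these settings. Groups with fewer libraries separate more readily. Over all transcripts, the number with an unadjusted p under 0.05 also rose without control replicate 1, from 1340 to 4572. Without control replicate 3 the number of negative estimates was 7 of 9 and the median was -0.25.

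**Figure D2:**
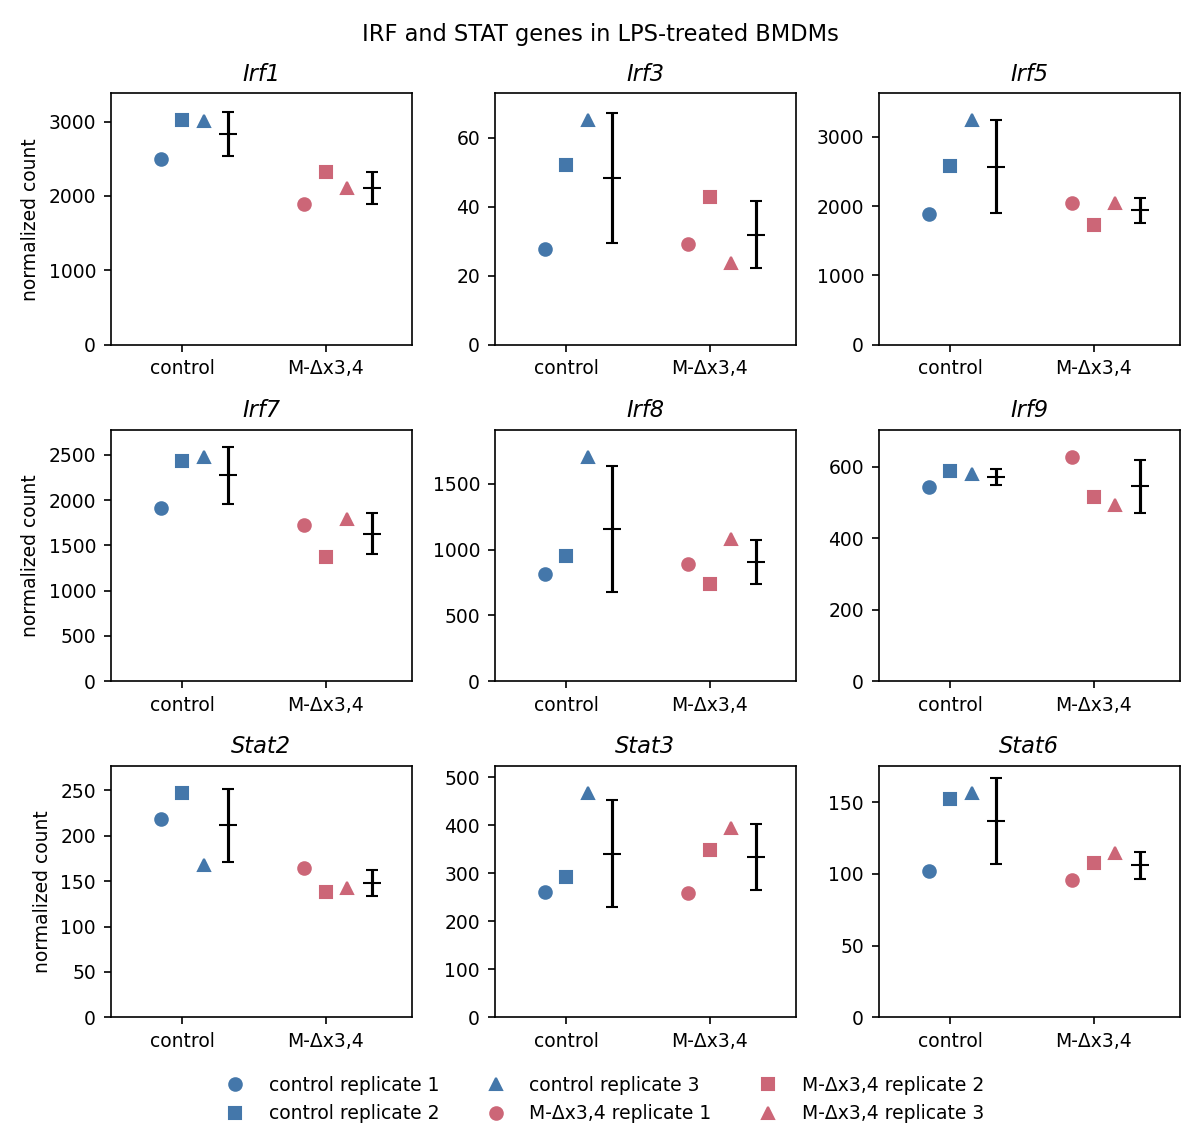
Normalized counts of the 9 members in each library (symbols), with the mean and SD of the 3 libraries of a group (black), each axis starting at 0. The groups do not overlap for Irf1, Irf7 and Stat2, and control replicate 3 is the highest library for 6 members.

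Irf1 encodes an early interferon- and NF-κB-inducible activator of interferon and antigen presentation genes. Its counted region, chr11:53776447-53777572 of mm10 on the plus strand, is the 3′ UTR of ENSMUST00000019043 and the bases behind it. Normalized counts were 2491.9, 3015.0 and 3002.5 in control and 1888.8, 2322.7 and 2113.0 in M-Δx3,4 BMDMs (2836.5 ± 298.5 against 2108.2 ± 217.0, SD, n = 3). The highest M-Δx3,4 library was thus below the lowest control library. The log2 fold change was -0.43 (SE 0.28, 95% confidence interval -1.03 to 0.18), and the exact permutation test, two-sided, gave p = 0.1, the smallest that 3 against 3 allow. It stayed between -0.51 and -0.36 with each library left out in turn.

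Irf7, the amplifier of type I interferon production, was counted over 3 regions on the minus strand of chromosome 7, from 141262956 to 141263888. Its representative transcript, ENSMUST00000209899, is annotated as a target of nonsense-mediated decay, but its regions share reads with protein-coding Irf7 transcripts. Normalized counts were 1914.3, 2436.7 and 2480.4 in control and 1722.5, 1369.1 and 1791.3 in M-Δx3,4 BMDMs. The groups did not overlap, with the lowest control library close above the highest M-Δx3,4 library. They were also separate for the protein-coding ENSMUST00000123525. They overlapped for the protein-coding ENSMUST00000097952, with 1003.0, 1576.5 and 1642.8 against 1027.1, 972.0 and 1015.6 normalized counts. The same held for the protein-coding ENSMUST00000026571 and ENSMUST00000106023, so the separation of Irf7 depends on the transcript. The values that follow are those of ENSMUST00000209899. This was a log2 fold change of -0.48 (SE 0.29, 95% confidence interval -1.11 to 0.14, exact permutation test, two-sided, p = 0.1). Of its 13 annotated transcripts, 11 were tested and 11 had negative estimates, from -0.49 to -0.24, though none passed the test and they share reads. The region in the middle of the 3 held 36.7, 26.3 and 23.7% of the reads in control and 29.6, 19.0 and 33.1% in M-Δx3,4 libraries, which overlap (exact permutation test, two-sided, p = 0.8).

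Stat2, a subunit of ISGF3, was counted at chr10:128291374-128293098 on the plus strand (ENSMUST00000085708). Normalized counts were 218.5, 247.3 and 168.2 in control and 164.3, 137.9 and 142.1 in M-Δx3,4 BMDMs. The separation was narrow, between control replicate 3 and M-Δx3,4 replicate 1, and was lost when counts were scaled by library totals alone, which left 2 of 9 members with groups that do not overlap. Stat2 had a log2 fold change of -0.51 (SE 0.33, 95% confidence interval -1.21 to 0.19, exact permutation test, two-sided, p = 0.1).

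Irf9, the DNA-binding subunit of ISGF3, had groups that overlapped. It was counted at chr14:55609032-55610279 on the plus strand (ENSMUST00000130697), with 545.1, 587.5 and 580.1 normalized counts in control and 629.0, 515.6 and 492.1 in M-Δx3,4 BMDMs. M-Δx3,4 replicate 1 was the highest and M-Δx3,4 replicate 3 the lowest of the 6 libraries. For Irf9 the log2 fold change was -0.07 (SE 0.30, 95% confidence interval -0.70 to 0.56; exact permutation test, two-sided, p = 0.6), and it was 0.00 without M-Δx3,4 replicate 3. Whether Irf9 differed from Stat2 in its change was not tested.

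Irf3, the TLR-activated inducer of interferon beta, had the fewest reads, 24 to 56 per library, over chr7:45002184-45002639 on the plus strand (ENSMUST00000207129). Normalized counts were 27.9, 52.1 and 65.0 in control and 29.3, 42.7 and 23.7 in M-Δx3,4 BMDMs. Control replicate 1 lay among the M-Δx3,4 libraries, so the groups overlapped. The estimate was a log2 fold change of -0.60 (SE 0.44, 95% confidence interval -1.54 to 0.34; exact permutation test, two-sided, p = 0.3), the widest interval of the members. Without control replicate 1 it was -0.88 and passed the unadjusted threshold, the 1 time that a member did so when each library was left out in turn, and without control replicate 3 it was -0.32.

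Irf5, which drives inflammatory cytokine genes, was counted at chr6:29536786-29537568 on the plus strand (ENSMUST00000004392). Normalized counts were 1889.9, 2573.7 and 3234.5 in control and 2044.4, 1730.4 and 2048.8 in M-Δx3,4 BMDMs. Control replicates 2 and 3 were above every M-Δx3,4 library and control replicate 1 was not. The log2 fold change was -0.40 (SE 0.30, 95% confidence interval -1.05 to 0.24; exact permutation test, two-sided, p = 0.3) and reached -0.58 when control replicate 1 was left out and -0.19 when control replicate 3 was.

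Irf8, the myeloid lineage factor, was counted at chr8:120755176-120756943 on the plus strand (ENSMUST00000047737). Normalized counts were 817.1, 948.1 and 1706.6 in control and 893.1, 740.9 and 1081.3 in M-Δx3,4 BMDMs. Control replicate 3 stood apart from the other 5 libraries, and without it the log2 fold change went from -0.35 (SE 0.34, 95% confidence interval -1.08 to 0.37; exact permutation test, two-sided, p = 0.6) to 0.05. The proximal 478 bases of the region, which end a shorter annotated transcript, held 20.5, 27.5 and 38.1% of the reads in control and 34.4, 46.9 and 29.2% in M-Δx3,4 libraries. These shares overlapped (exact permutation test, two-sided, p = 0.4).

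Stat3 and Stat6 serve the anti-inflammatory and the type 2 cytokines. Stat3 had 261.5, 293.2 and 467.5 normalized counts in control and 259.2, 348.6 and 394.3 in M-Δx3,4 BMDMs, over 2 regions on the minus strand of chromosome 11 from 100884849 to 100889515 (ENSMUST00000103114). Its groups overlapped throughout, and the log2 fold change of -0.03 (SE 0.34, 95% confidence interval -0.75 to 0.69; exact permutation test, two-sided, p = 1) became 0.28 without control replicate 3 and 0.12 without M-Δx3,4 replicate 1. The proximal part of its long region (718 bases, ENSMUST00000092671) held 31.1, 42.9 and 38.5% of the reads in control and 28.7, 59.3 and 48.1% in M-Δx3,4 libraries, which overlap (exact permutation test, two-sided, p = 0.5). The Stat3 region overlaps that of Stat5a on the opposite strand by 570 bases. The part of it used by ENSMUST00000127638, outside the overlap, held all but at most 1 read of the region in each library, while Stat5a had 30 to 85 reads.

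Stat6 was counted at chr10:127659982-127661206 on the plus strand (ENSMUST00000092074), with 102.3, 152.2 and 156.6 normalized counts in control and 95.9, 107.8 and 114.6 in M-Δx3,4 BMDMs. Control replicates 2 and 3 lay above every M-Δx3,4 library, and control replicate 1 lay among them. This gave a log2 fold change of -0.37 (SE 0.35, 95% confidence interval -1.11 to 0.37; exact permutation test, two-sided, p = 0.3). Its region overlaps that of Nab2 on the opposite strand by 538 bases and that of Irf7 overlaps Phrf1 by 44 bases. Nab2 had 4 to 19 and Phrf1 26 to 42 reads, and reads in the shared bases cannot be assigned if the counting ignored strand.

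**Figure D3:**
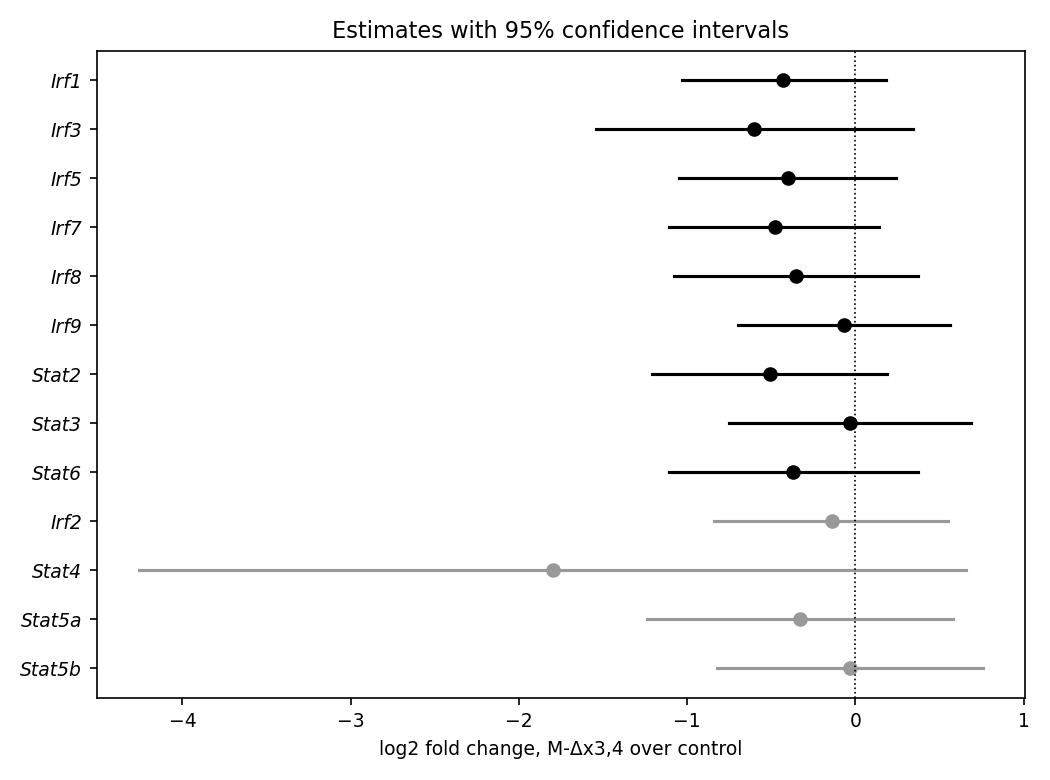
Log2 fold change (points) with its 95% confidence interval (lines) from edgeR for the 9 members (black) and for Irf2, Stat4, Stat5a and Stat5b (grey). Every interval includes 0, and the widest is that of Stat4.

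Other IRF and STAT genes gave no called difference either. Irf2, which binds the same elements as Irf1, had a log2 fold change of -0.14 (SE 0.33), Stat5a of -0.33 (SE 0.43) and Stat5b of -0.03 (SE 0.37). Stat4, with 13.9, 8.2 and 1.2 against 0.0, 5.8 and 0.8 normalized counts, was too low to compare. Irf4 had at most 2 reads in a library and was not tested.

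Control replicate 3 was the highest of the 6 libraries for 6 of the 9 members (Irf3, Irf5, Irf7, Irf8, Stat3 and Stat6), and control replicate 2 for Irf1 and Stat2. The lowest of the 6 libraries was an M-Δx3,4 library for all 9 members. The shares of all tested genes with these orders of libraries were not obtained, so the orders cannot be called particular to the members. Control replicate 3 also stood apart over all expressed genes, as given below. The summed normalized counts of the 9 members were 8268.4, 10305.8 and 11861.5 in control and 7726.5, 7315.7 and 8201.4 in M-Δx3,4 libraries. In this sum, control replicate 1 lay just above the M-Δx3,4 libraries and the other control libraries well above them. Irf1, Irf5 and Irf7 made up most of the sum. By single members, control replicate 1 lay above every M-Δx3,4 library only for Irf1, Irf7 and Stat2. Over the 6 libraries, 33 of 36 pairs of members had a positive Pearson correlation of log2 normalized counts, from -0.507 (Stat3 with Stat2) to 0.892 (Irf7 with Irf5). These correlations share the same libraries and their group difference and are given as a description. The share of positive pairs among all tested genes was not obtained.

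**Figure D4:**
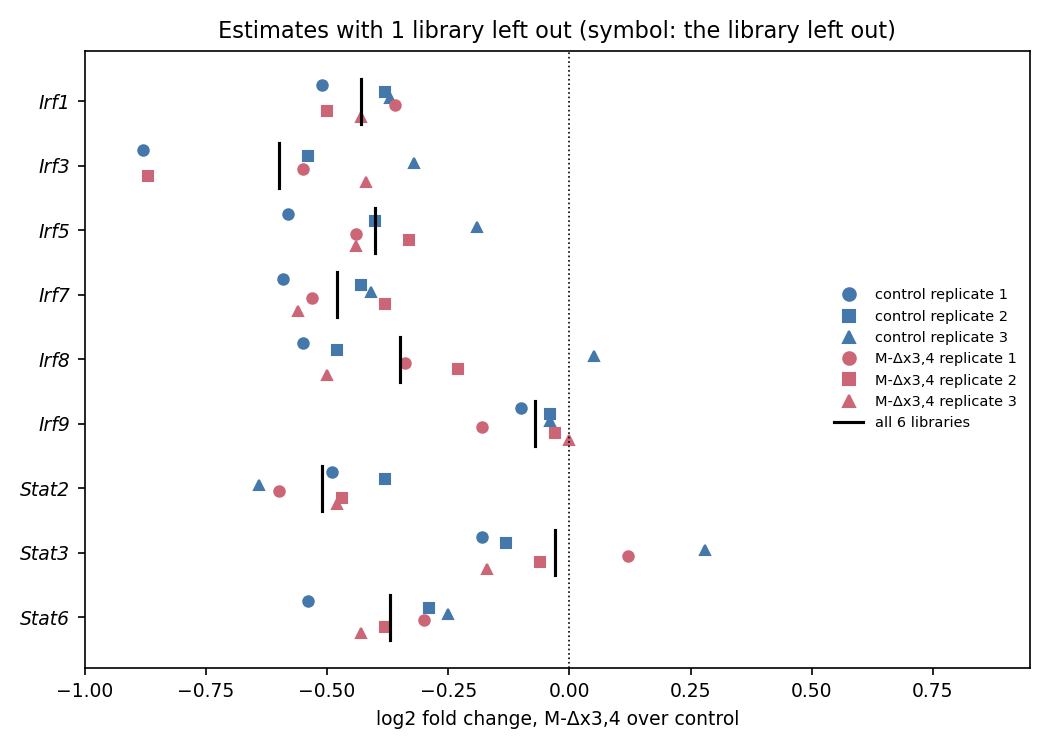
Log2 fold change of each member when 1 library was left out (symbol and colour give the library), with the estimate from all 6 libraries as a black line. Irf8 and Stat3 cross 0 without control replicate 3, while Irf1, Irf7 and Stat2 stay at or below -0.36.

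The libraries themselves were uneven. The first principal component of the expressed genes (62.1% of the variance) placed control replicate 1 at -30.4, control replicate 2 at 9.3, control replicate 3 at 54.9 and the M-Δx3,4 libraries between -21.3 and -5.3, and correlations between libraries ran from 0.764 (control replicates 1 and 3) to 0.971 (control replicate 1 and M-Δx3,4 replicate 3). The counts summed over all transcripts, which share reads, were 5852374 to 6666525 in control and 6627536 to 9008878 in M-Δx3,4 libraries. Hnrnpd, the targeted gene, is given by its p37 transcript ENSMUST00000072750, chosen by name and not by the most-counted rule. It had 177.8, 104.2 and 69.6 against 52.8, 12.6 and 16.0 normalized counts (log2 fold change -2.11, SE 0.54). All 9 macrophage markers were detected in both groups, and 8 of them did not pass the test, while Lyz2, in whose locus LysMCre was built, passed the unadjusted threshold with a log2 fold change of -0.91 (SE 0.30, adjusted p = 0.984). The 7 B cell markers summed to 301.0 to 358.5 in control and 142.7 to 165.3 in M-Δx3,4 libraries, mostly through Igkc, which passed the unadjusted threshold (log2 fold change -1.56, SE 0.34), while Pax5 was at 0 counts in 2 libraries and had at most 1 read in the others. The 9 neutrophil markers summed to 416.9 to 726.4 and 516.6 to 750.6, the 6 T cell markers to 10.4 to 45.3 and 12.7 to 25.2, the 8 dendritic cell markers to 7.0 to 18.6 and 1.0 to 12.6, and the 6 fibroblast markers to 2.3 to 48.8 and 1.9 to 33.3, where Col3a1 passed the test on at most 12 reads in 2 control libraries. The 4 Y-linked genes summed to 1.2, 32.7 and 3.5 in control and 31.3, 54.4 and 56.6 in M-Δx3,4 libraries, and of these Ddx3y (1.2, 14.3 and 0.0 against 14.7, 40.8 and 25.2 normalized counts) and Uty (0.0, 1.0 and 1.2 against 6.8, 6.8 and 11.5) passed the unadjusted threshold with groups that do not overlap. Eif2s3y had 0.0, 14.3 and 0.0 against 8.8, 6.8 and 17.6. Control replicates 1 and 3 thus had few Y-linked reads, unlike control replicate 2 and the M-Δx3,4 libraries. The labels give no sex, and a difference by sex cannot be fully told apart from one by genotype here. The part of these differences in the values of the IRF and STAT genes was not tested, and in these bulk libraries a change in the number of cells of a type and in RNA per cell cannot be told apart.

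Genes that act with, above and below the 9 members came from 8 lists of 105 genes, of which 97 were tested. Of these, 4 were lower and 1 was higher in M-Δx3,4 BMDMs at an unadjusted p under 0.05 (5.15%, where 3.98% of all tested genes were called), 59 had negative estimates and the median log2 fold change was -0.14. Without control replicate 1 the number called was 19, without control replicate 3 it was 3 and without M-Δx3,4 replicate 3 it was 1. Over all transcripts, the number called was 1340 with all libraries and 4572 without control replicate 1. It was 879 without control replicate 3 and 771 without M-Δx3,4 replicate 3. Every one of the 5 called genes had an adjusted p of 0.984 in the edgeR fit.

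Among 9 IRF partners and cofactors, 1 was called. Spi1, which encodes PU.1, had 896.1, 1940.2 and 4655.7 normalized counts in control and 1511.3, 1024.4 and 1211.3 in M-Δx3,4 BMDMs. Control replicate 1 was the lowest and control replicate 3 by far the highest library. The log2 fold change of -1.0 (SE 0.46) became -0.17 without control replicate 3, and Spi1 passed in 2 of the 6 fits that each left out 1 library.

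Of 13 upstream adaptors and kinases, 1 was called. Jak3, the kinase of receptors that share the common gamma chain, had 50, 45.0 and 113.7 against 27.4, 21.4 and 28.3 normalized counts, and the groups did not overlap. Its log2 fold change of -1.43 (SE 0.45) stayed between -1.67 and -0.87 in the 6 fits that each left out 1 library, and passed the unadjusted threshold in all 6.

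Of the 13 tested cytokines and receptors upstream of STATs, 0 were called (7 estimates negative, 6 positive). The log2 fold changes of Il4ra and Il10ra, receptor chains of IL-4 and IL-10 with the highest counts of the list, were -0.21 (SE 0.30) and -0.42 (SE 0.32). Of 12 tested feedback inhibitors 0 were called, with 10 negative estimates. Usp18, which restrains interferon receptor signalling, had a log2 fold change of -0.11 (SE 0.28), and Ptpn1, a phosphatase of JAKs, of -0.18 (SE 0.31).

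Estimates for the targets of the 9 members ran in both directions. Of 27 IRF and ISGF3 targets, 10 had negative and 17 positive estimates (median 0.07), with 1 called in each direction. Rsad2, which encodes the antiviral protein viperin, rose, with 12769.9, 8425.9 and 8310.2 against 9002.0, 17923.2 and 26179.3 normalized counts (log2 fold change 0.85, SE 0.36). M-Δx3,4 replicate 1 lay within the control range, and without M-Δx3,4 replicate 3 the log2 fold change was 0.45. Rsad2 passed the unadjusted threshold in 3 of the 6 fits that each left out 1 library. Oasl1, known for limiting Irf7 translation, fell, with 1715.5, 2197.7 and 4154.5 against 1773.4, 1398.3 and 1457.3 (log2 fold change -0.80, SE 0.35), which was -0.33 without control replicate 3. It passed in 2 of the 6 fits.

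Of 13 STAT3 targets, 10 had negative estimates (median -0.25) and 1 was called. Junb, an AP-1 subunit, had 3563.5, 6933.2 and 11395.1 against 3870.6, 4500.7 and 3399.9 normalized counts, with control replicate 1 inside the M-Δx3,4 range. The log2 fold change was -0.90 (SE 0.37), and -0.41 without control replicate 3, and Junb passed in 3 of the 6 fits that each left out 1 library. Of 8 tested STAT6 targets, 7 had negative estimates (median -0.47) and 0 were called. The mannose receptor gene Mrc1 and the lectin gene Clec10a, the most counted of them, had log2 fold changes of 0.07 (SE 0.32) and -0.20 (SE 0.46).

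**Figure D5:**
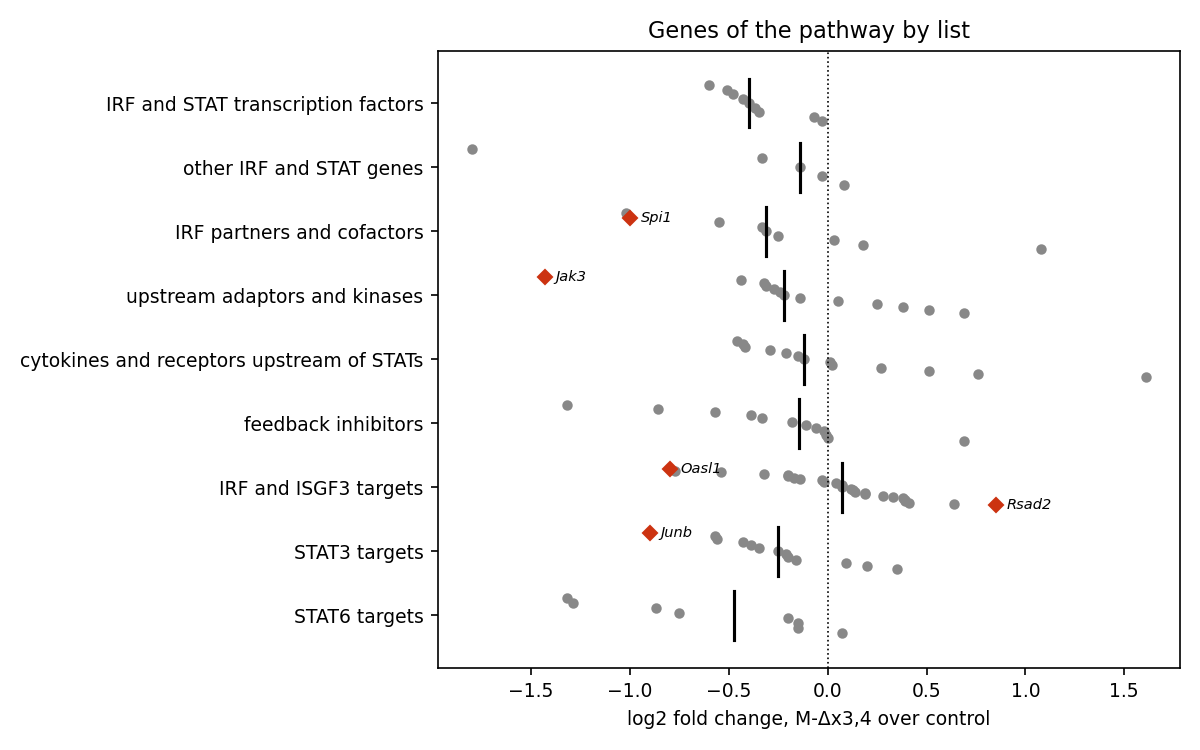
Log2 fold change of each tested gene (points) by list, with the list's median (black line). Red diamonds mark the 5 genes with an unadjusted p under 0.05, of which only Rsad2 is above 0.

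For each member, the gene whose log2 normalized counts followed it most closely over the 6 libraries was sought among 4722 other genes with a mean of at least 50 normalized counts. Irf7 was most like Socs3, a feedback inhibitor of STAT3 (Pearson r = 0.996). Socs3 had normalized counts of 204.6, 270.7 and 279.6 against 178.0, 132.1 and 197.2, which did not overlap (log2 fold change -0.57, SE 0.33). This is not a separate result, since Socs3 was picked for following Irf7 over the same libraries. Irf1 was most like Zfp513 (0.983), Irf5 most like Gm5559 (0.996), Irf8 most like Cers2 (0.995) and Irf9 most like Dmac1 (0.974). Stat2 was most like Slc2a1 (0.949), Stat3 most like Keap1 (0.984) and Stat6 most like Napa (0.980). Irf3 was most like Rhoc, with r = 0.998 over 4723 genes. Between 9 and 179 genes per member had an r over 0.9.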

How the data were processed

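RNA of 3 control and 3 M-Δx3,4 BMDM samples was sequenced from the 3′ end (QuantSeq forward kit, Ion Proton). According to the authors' methods, reads were mapped to mm10 with TopHat2 and, where unmapped, with Bowtie2 (versions 2.1.1 and 2.3.2 in the submitters' processing notes; the methods name another Bowtie2 version), and the deposited counts are reads per annotated 3′ UTR region, not normalized. The TPM values are the authors' own and were deposited in a second table, whose 18 other columns of values per sample were not used. That table also holds the authors' fold changes and p-values, which were not used. The strand setting of the counting is not given in the sources used here. Counts of the regions of a transcript were summed, giving 5852374 to 9008878 per library over all transcripts. These totals are not the number of reads, since a read in bases shared by several transcripts counts for each. With 1 transcript per gene they were 2503125 to 3846215. The counts per transcript were scaled by median-of-ratios factors. Transcripts above 4.89 normalized counts, the median, in at least 1 library were kept (32475). The groups were compared with edgeR 4.0.16 (R 4.3.3, quasi-likelihood test, Benjamini-Hochberg adjustment over all 32475). A call is an unadjusted p under 0.05, without or with a log2 fold change of 1 or more in size, the thresholds the study used. For the share of called genes, each gene counted once (11873 tested). Exact permutation tests compared means of log2 normalized counts plus 1. The members and gene lists were chosen with earlier results of these data known. Text names all 9 members and other IRF and STAT genes (some genes covered by this rule are not reported here), in each list the called genes (at most 4, otherwise the 2 most counted) and per member the most correlated gene; Socs3 is named as such. AU-rich pentamers were sought in annotated 3′ UTRs rather than in the counted regions. Alternatives were TMM (edgeR), library totals, DESeq2 1.42.0, limma-voom 3.58.1, other filters, the replicate number as a block, 1 library left out and the transcript with the next highest mean. Replicate numbers were taken from the labels. Figures were drawn with matplotlib 3.10.9.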

Additional observations from a re-analysis of the deposited data

How the results depend on the processing

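With all libraries kept, 0 of 9 members passed the unadjusted or the adjusted threshold under any alternative, and 136 of the 142 estimates of single members kept their direction and their side of the threshold. The exceptions were Stat3 with limma-voom (0.00), and, with 1 library left out, Irf8 (from -0.55 to 0.05), Irf9 (from -0.18 to 0.00), Stat3 (from -0.18 to 0.28) and Irf3, which was called without control replicate 1 (-0.88). Leaving out 1 library gave 0 to 1 called members, 3 to 6 members whose groups do not overlap, and 1 to 19 called genes of the pathway lists (5 with all libraries). The share of all tested genes with separate groups was not obtained for these fits. The number called over all transcripts moved as well, as given below. The next most counted transcript, tested for 7 members, left 1 member (Irf7) whose groups do not overlap. Irf1 was not among the 7, and the transcript of Stat2 had very few reads. The cause of these changes was not tested.

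Over all transcripts, 1340 had an unadjusted p under 0.05, and 1071 also passed the fold threshold. These counts were 2148 and 1715 with no filter, 749 and 471 with edgeR's filterByExpr, 628 and 265 with 10 counts asked of every library, and 469 and 365 with 1 transcript per gene, which test more or fewer features. DESeq2 gave 696 with the fold threshold. Leaving out 1 library gave 771 to 4572 and 710 to 3224, and the highest in each case was without control replicate 1. An adjusted p under 0.05 was reached by 0 transcripts in the main edgeR fit, by 4 with DESeq2, by 118 with no filter and by 55 without control replicate 1, none of them a member.

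Samples with the same replicate number did not deviate together in every pair (correlations of -0.213, 0.537 and -0.309). These are deviations from means of 3 libraries and cannot decide whether the numbers pair the samples. The labels do not say so either. With the replicate number as a block, 0 members, 3 genes of the pathway lists and 685 transcripts (with the fold threshold) were called. Groups of 3 were not tested for outlying samples. Irf3 and Stat4, with the lowest counts, are the least precisely measured.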
